A study of Mus musculus with 62 samples.

Results

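At 12 months of age, CD11b+ cells from 3 APPPS1 libraries of the set tagged Mxo4 were compared with those from 3 WT libraries of the same set. CD11b is a surface integrin of microglia and other myeloid cells. The libraries are APPPS1_12m_Mxo4 replicates 57, 58 and 59 and WT_12m_Mxo4 replicates 60, 61 and 62. They are 6 of the 62 libraries of the series. Another library labelled APPPS1_12m_Mxo4, replicate 56, was left out of the set because its counts showed no transgene response. That choice used the measured values. Differences between the 3 and the 3 are therefore given as a description with no test. Tests are given for the groups as labelled (4 against 3), and for libraries that the choice did not use.

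APPPS1 mice carry human transgenes, mutant amyloid precursor protein among them, expressed in neurons from a Thy1 promoter, and form amyloid plaques in the brain. WT mice carry no transgene, and both genotypes have an intact Nlrp3 gene. The labels do not spell out the tag Mxo4, and the protocol is the same for both groups. Other libraries of the same age served for comparison. These were 5 untagged APPPS1_12m and 3 untagged WT_12m libraries, and 3 APPPS1_NLRP3_12m_Mxo4 and 3 NLRP3_12m_Mxo4 libraries, whose genotype is labelled NLRP3 with or without APPPS1. The labels do not say whether replicates are separate animals, so the p-values reflect spread among samples alone, and that spread may be technical.

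Microglia are the resident macrophages of the brain. In health they express a homeostatic program that includes purinergic receptors and TMEM119. Around amyloid plaques they take on a disease-associated program, which depends in part on the lipid-sensing receptor TREM2 with its adaptor TYROBP and includes lysosomal, lipid-handling and secreted proteins. Type I interferon target genes and antigen-presentation genes are known to rise in a further part of plaque-exposed microglia.

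The 6 libraries held between 11484943 and 21330948 counts, against a median of 18392142 over the 62 libraries. Levels are in CPM, each count divided by its library's total, scaled by TMM factors. Throughout, 3 values for APPPS1_12m_Mxo4 are in the order of replicates 57, 58 and 59, and 3 values for WT_12m_Mxo4 in the order of 60, 61 and 62. Xist and Y-linked genes read replicates 57, 59 and 61 as male and replicates 58, 60 and 62 as female, and replicate 56 as male. By the same genes all untagged APPPS1_12m and WT_12m libraries read as female. APPPS1_NLRP3_12m_Mxo4 and NLRP3_12m_Mxo4 each held both sexes. Comparisons between the Mxo4 and untagged sets therefore also differ in sex. The marker of the sort was present in all libraries. Itgam, which encodes CD11b, measured 430, 475 and 358 CPM in APPPS1_12m_Mxo4 and 432, 428 and 437 CPM in WT_12m_Mxo4. P2ry12, a purinergic receptor that marks microglia, measured 3927, 3321 and 3317 CPM against 6401, 5359 and 6017 CPM.

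Replicate 56 was closer to WT than to the libraries of its own label. Over genes, chi-square per degree of freedom was between 16.3 and 23.7 for replicate 56 against each WT_12m_Mxo4 library, and between 85.9 and 107 against replicates 57, 58 and 59. The 3 WT libraries differed from each other by 14.8 to 19.2, and replicates 57, 58 and 59 by 13.3 to 20.2. The choice to leave it out can be described on the 2212 genes called higher in untagged APPPS1_12m than in WT_12m. Replicates 57, 58 and 59 lay above the whole WT_12m_Mxo4 range in 79.2%, 80.1% and 76.0% of them, against 30.5%, 27.9% and 26.9% of all genes tested. Replicate 56 did so in 22.4%, against 24% of all genes tested. Of the 1389 genes called lower in the untagged comparison, 69.4%, 74.4% and 70.1% lay below the WT range in replicates 57, 58 and 59, and 22.5% in replicate 56. Of all genes tested, 33.3%, 32%, 30.5% and 20.5% did so. These shares restate the response for which the libraries were chosen and are no test of it.

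The counts on App, the mouse gene of the amyloid precursor protein, did not separate the groups. App measured 270, 269 and 256 CPM in the 3 APPPS1_12m_Mxo4 libraries, 223 CPM in replicate 56 and 262, 215 and 223 CPM in WT. These are counts on a mouse gene in cells that are not neurons, and whether replicate 56 carries the transgenes cannot be told from them.

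With groups as labelled, 1014 of 19865 genes passed an adjusted p of 0.05 (5.1%) in edgeR's quasi-likelihood test with Benjamini-Hochberg adjustment over all genes. Of these 683 rose (3.44%) and 331 fell (1.67%). Without replicate 56 the same fit passed 2536 of 19849 genes (12.8%), 1324 higher (6.67%) and 1212 lower (6.11%). This is a leave-one-out value of a set chosen on these data, and nothing is read from it. The labelled count changed with the libraries that entered the fit. A fit on the 7 libraries alone called 16 genes, among them Trpm1, Baiap2l2, Lgi2, Chst3, Minar1 and Tcap. That fit called no member of any of the 31 gene lists described below, markers of other cell types included. Leaving out 1 of the other 6 libraries gave 419 genes without replicate 58, 543 without 60, 587 without 57, 598 without 61, 606 without 59 and 710 without 62.

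Genes that rose with groups as labelled mostly also rose in libraries of the untagged set, which share none with these. The untagged comparison called 3601 genes (18.1%), 2212 of them higher (11.1%) and 1389 lower (6.99%). Of the 683 genes that rose, 578 were also called higher there. They are 84.6% of the 683 and 26.1% of the 2212, and 1 gene was called in the opposite direction. Of the 331 that fell, 178 were called lower there (53.8% of the 331 and 12.8% of the 1389), and 2 were called higher. In the comparison of APPPS1_NLRP3_12m_Mxo4 with NLRP3_12m_Mxo4, which called 1031 genes (5.19%), 446 of the 683 were called higher and 112 of the 331 lower. Those are 63.1% of the 707 called higher there (3.56% of all genes) and 34.6% of the 324 called lower (1.63%).

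**Figure D1:**
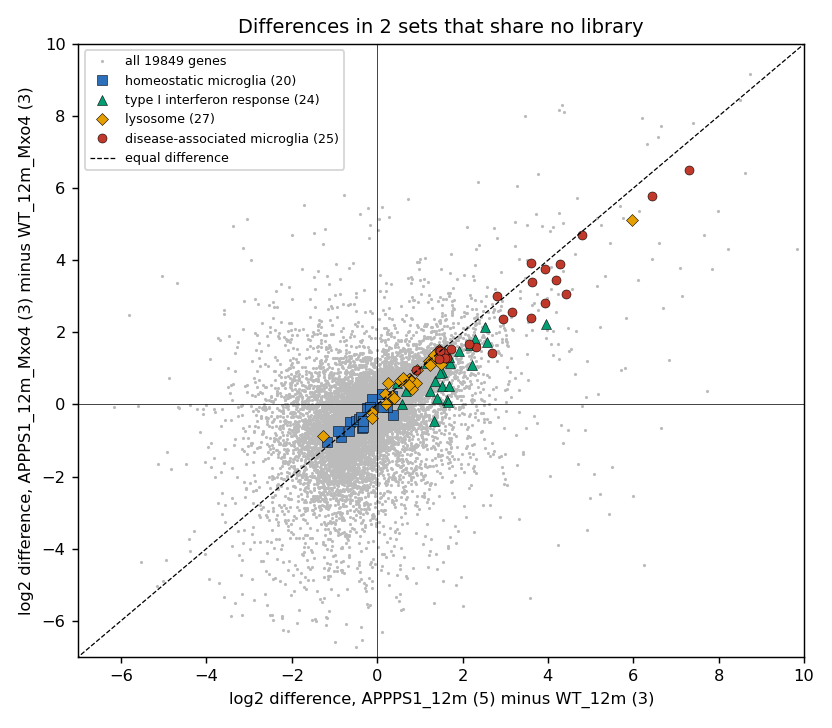
Log2 difference of each of 19849 genes in the untagged set (x axis, APPPS1_12m, 5 libraries, minus WT_12m, 3) and in the Mxo4 set (y axis, replicates 57, 58 and 59 minus 3 WT), with 4 gene lists coloured and 5 genes outside the axes. Disease-associated microglial genes lie at the upper right in both sets. Most interferon genes lie below the dashed line of equal difference, and so do most disease-associated and lysosomal genes.

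The largest rises were in genes that WT libraries hardly expressed. Trpm1, a cation channel known from melanocytes and retinal bipolar cells, lies at chr7:64153835-64269775 (mm10, plus strand). It measured 22.1, 20.4 and 22.3 CPM in the 3 APPPS1 libraries, 0, 0.0543 and 0.0972 CPM in WT and 0 CPM in replicate 56. The 3 APPPS1 libraries held 1005 counts of it and the 3 WT libraries 3, a 359-fold ratio of levels with a 95% exact counting interval from 123 to 1750. Chst3, a sulfotransferase that modifies chondroitin chains of the matrix, measured 5.91, 13.2 and 6.72 CPM. WT held 1 count of it in all, against 422 in the 3 APPPS1 libraries, which gives a 453-fold ratio with an interval from 80.8 to 17900. The intervals cover counting error only, and both genes were picked for the size of their rise in these libraries.

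Several of the other leading genes encode secreted or membrane proteins. Mamdc2, a matrix protein with MAM domains (chr19:23302609-23448442, minus strand), measured 239, 178 and 166 CPM against 0.806, 0.272 and 1.46 CPM in WT and 0.206 CPM in replicate 56. Dkk2, a secreted modulator of Wnt signalling (chr3:132085292-132180304, plus strand), measured 42.9, 38.4 and 32.8 CPM against 0.627, 0.0543 and 0.340 CPM. Lgi2, a secreted protein with leucine-rich repeats, measured 24.6, 16.7 and 17.4 CPM against 0, 0.217 and 0.0486 CPM. For each of them, all 3 APPPS1 libraries lay far above all 3 WT libraries, and replicate 56 lay within or below the WT range. Gpnmb, a transmembrane glycoprotein of lysosomes and melanosomes, measured 448, 410 and 193 CPM against 4.48, 2.61 and 11.4 CPM, with 1.54 CPM in replicate 56. Replicate 59 was the lowest of the 3 APPPS1 libraries for Gpnmb.

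Baiap2l2, a membrane-bending adaptor of the actin cytoskeleton, measured 44.1, 40.6 and 32.7 CPM against 0.0896, 0.163 and 0.243 CPM. Minar1, Ctnna3 (an alpha-catenin), Tcap (telethonin, a sarcomere protein) and Kcnk9 (a background potassium channel) were also among the 12 largest rises. Their lowest APPPS1 values were 10.1, 5.37, 23.9 and 9.35 CPM, and their highest WT values 0.272, 0.272, 1.47 and 0.537 CPM. Cst7, which encodes cystatin F, an inhibitor of endolysosomal cathepsins (chr2:150570415-150578944, plus strand), completed the 12. It measured 2395, 2016 and 1648 CPM against 27.6, 11.5 and 33.9 CPM, with 10.8 CPM in replicate 56. The 12 were taken from genes that passed the edgeR test as labelled and in the untagged set and whose 3 and 3 libraries did not overlap, so those features describe the choice. Their adjusted p as labelled lay between 4.5e-07 for Cst7 and 0.000676 for Ctnna3, and they passed without any 1 of the 7 libraries. The highest adjusted p of the 12 in a leave-out was 0.0131, for Ctnna3 without replicate 62. In the untagged set the log2 difference was 7.40 ± 0.97 (SE) for Mamdc2 and 6.33 ± 0.92 for Dkk2. In all, 499 named genes met the conditions from which these 12 were taken.

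**Figure D2:**
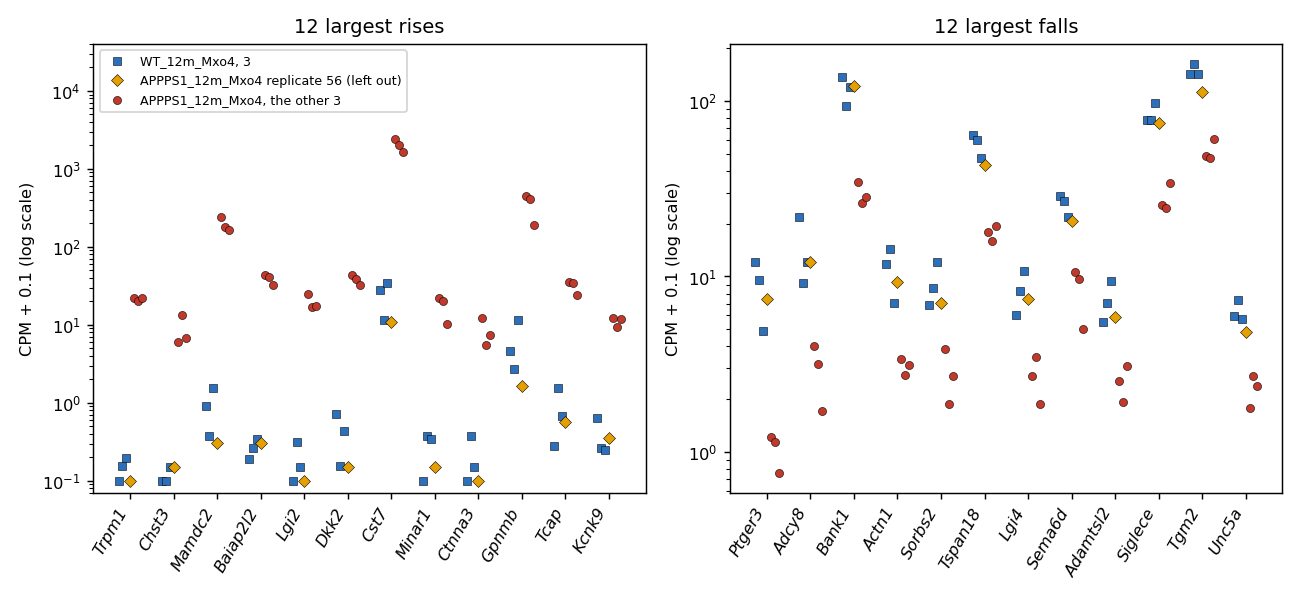
Level in each library (CPM + 0.1, log axis) of the 12 largest rises (left) and 12 largest falls (right) that met the naming rule, with 1 point per library. The 3 APPPS1 libraries lie apart from the 3 WT libraries in every gene by the rule that chose them, and replicate 56 lies near the WT libraries.

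The falls, chosen by the same conditions, were smaller. Bank1, a scaffold protein of lymphocyte receptor signalling (chr3:136053363-136326066, minus strand), measured 34.3, 25.9 and 28.1 CPM against 136, 93.7 and 120 CPM in WT, and 121 CPM in replicate 56. The log2 difference was −1.19 ± 0.24 as labelled (adjusted p = 0.000951, edgeR) and −1.95 without replicate 56, given as a description. Siglece, an inhibitory receptor for sialic acid (chr7:43651070-43660161, minus strand), measured 25.3, 24.5 and 34 CPM against 77.9, 78.0 and 97.2 CPM (−1.09 ± 0.22 as labelled, adjusted p = 0.000768). Tspan18, a tetraspanin, measured 17.7, 15.8 and 19.2 CPM against 63.9, 59.7 and 47.2 CPM (−1.24 ± 0.24, adjusted p = 0.000478). Tgm2, a protein-crosslinking transglutaminase, measured 48.7, 47 and 60.3 CPM against 143, 161 and 142 CPM (−1.13 ± 0.23, adjusted p = 0.000812). These 4 kept their call in every leave-out, and all 4 were called lower with the NLRP3 genotype, which the choice did not use. Replicate 56 lay within the WT range for Bank1 and below it for the other 3.

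The other 8 of the 12 largest falls lost their call in at least 2 of the 7 leave-outs. Ptger3, the EP3 receptor for prostaglandin E2, measured 1.12, 1.05 and 0.667 CPM against 12.0, 9.40 and 4.81 CPM, and 7.36 CPM in replicate 56. It fell by 1.76 ± 0.55 on the log2 scale as labelled (adjusted p = 0.0450, edgeR) and lost the call without any of replicates 57, 58, 59, 60 and 61, with the highest adjusted p, 0.206, without replicate 58. It was lower in the untagged set by a log2 difference of −2.53 ± 0.53 (adjusted p = 0.000372). Adcy8, an adenylyl cyclase, measured 3.94, 3.10 and 1.61 CPM against 21.6, 9.07 and 11.9 CPM. Its call, adjusted p = 0.00641, was lost without replicates 58, 59 or 60, where the highest adjusted p was 0.126. Sema6d, a transmembrane semaphorin, measured 10.5, 9.51 and 4.94 CPM against 28.7, 26.7 and 21.7 CPM, and lost its call (adjusted p = 0.00922) without replicates 58 or 59 (0.0726 at most). Actn1, Sorbs2, Lgi4, Adamtsl2 and Unc5a, all under 15 CPM in each library, lost theirs in 4 to 6 leave-outs each, with adjusted p up to 0.245.

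Over a list of 25 disease-associated microglial genes, all 25 lay higher in each of the 3 APPPS1 libraries than in any WT library, against 14.5% of all genes. The median log2 difference was 2.39 without replicate 56 and 2.03 as labelled, against −0.06 and −0.02 over all genes. As labelled 24 of 25 rose and none fell, against 3.44% and 1.67% of all genes, shares that apply to each list below too. The exception was Lgals3, a beta-galactoside-binding lectin. Leaving out 1 of the 6 libraries left between 22 (without replicate 60) and 25 of them called. All 25 were called higher in the untagged set (median 2.94) and all 25 with the NLRP3 genotype (median 2.32). Csf1, the growth factor of microglia themselves, measured 560, 912 and 774 CPM against 79.0, 70.4 and 117 CPM, and Ank, a pyrophosphate transporter, 920, 818 and 670 CPM against 50.2, 43.9 and 66.8 CPM. The growth factor Igf1 measured 333, 318 and 224 CPM against 12.6, 11.9 and 11.3 CPM. The 3 APPPS1 libraries were alike, with a median ratio of 1.23 between the highest and lowest of them over the list and a largest ratio of 2.32. In WT, replicate 62 was the highest library in 24 of the 25 genes, and the summed level was 20230, 20510 and 25450 CPM in WT against 69860, 72360 and 65490 CPM in APPPS1 and 19980 CPM in replicate 56.

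Trem2, its adaptor and Axl rose. Trem2 measured 1864, 2006 and 2021 CPM against 717, 851 and 899 CPM, its adaptor Tyrobp 3525, 3773 and 3055 CPM against 1036, 1180 and 1319 CPM, and Axl, a receptor tyrosine kinase that binds dying cells (chr7:25757273-25788705, minus strand), 452, 456 and 357 CPM against 29.5, 30.2 and 57.5 CPM. As labelled these 3 of 24 listed genes rose and kept the call in every leave-out (log2 difference 1.04 ± 0.23, 1.29 ± 0.27 and 2.98 ± 0.44, adjusted p = 0.00233, 0.00134 and 7.01e-06). None fell, although 8 genes, among them the kinase Syk and the phospholipase Plcg2, were lower in all 3 APPPS1 libraries than in any WT library (15.6% of all genes were). The median of the list was −0.01 without replicate 56. In the complement list of 16 genes, Itgax, the integrin CD11c, rose (387, 305 and 281 CPM against 20.1, 17.7 and 33.7 CPM) and Cd93 fell (4.41, 3.71 and 2.39 CPM against 7.97, 8.37 and 11.1 CPM). The Cd93 call, adjusted p = 0.0101, was lost without replicates 58, 59 or 62 (adjusted p up to 0.0736), and Cd93 did not pass in the untagged set (log2 difference −0.21 ± 0.28, adjusted p = 0.648).

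Of 20 homeostatic microglial genes, 3 fell as labelled and none rose, with a median log2 difference of −0.26 (−0.38 without replicate 56, where 12 of 20 lay below every WT library and 2 above, against 15.6% and 14.5% of all genes). Tmem119, a microglial membrane protein, measured 1297, 1255 and 1459 CPM against 2276, 2659 and 2473 CPM, with 2341 CPM in replicate 56. It fell by 0.64 ± 0.18 on the log2 scale (adjusted p = 0.0213, edgeR), and the call was lost without any of replicates 57, 58, 59, 61 and 62 (adjusted p up to 0.138). P2ry13, a receptor for ADP, and Slc2a5, a fructose transporter, fell by 0.51 ± 0.15 and 0.55 ± 0.17, and each lost its call in 6 of 7 leave-outs (adjusted p up to 0.190 and 0.228). P2ry12 had a log2 difference of −0.53 ± 0.18 and an adjusted p of 0.0725. In the untagged set 8 of 20 were called lower, Tmem119 with −0.85 ± 0.17 (adjusted p = 0.000156) and Slc2a5 with −0.67 ± 0.16 (adjusted p = 0.00193) among them. Leaving out 1 of the other 6 libraries left at most 1 of the 20 called lower.

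Of 27 lysosomal genes, 16 rose as labelled (13 without replicate 58 or 60, at the fewest), 11 did not pass and none fell, with a median log2 difference of 0.56, and 0.71 without replicate 56. In the untagged set 20 were called higher and with the NLRP3 genotype 18. Glb1, lysosomal beta-galactosidase (chr9:114401076-114474898, plus strand), measured 232, 242 and 204 CPM against 94.3, 85.4 and 91.5 CPM (log2 difference 1.08 ± 0.18, adjusted p = 6.55e-05). Gusb, beta-glucuronidase, measured 699, 769 and 665 CPM against 329, 290 and 321 CPM (0.96 ± 0.16, adjusted p = 0.000102). The cysteine protease Ctsl measured 2613, 2730 and 2634 CPM against 875, 910 and 1163 CPM, with 1160 CPM in replicate 56. The groups did not overlap for any of these 3, and all 3 kept their call in each leave-out. Npc1, a cholesterol exporter of lysosomes, and the transcription factors Tfeb and Tfec were lower in all 3 APPPS1 libraries than in any WT library, and none of them passed the test as labelled.

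Many lysosomal genes are bound by TFEB and TFE3 at a motif known as CLEAR. The letters TCACGTG were searched on both strands in RefSeq promoters of 300 bases, 250 before and 50 after the start of the gene. They occurred in 6 of the 20 listed genes with a promoter (30%), against 4.29% of all 27025 genes. The 6 are Atp6v1a, Ctsa, Ctsd, Glb1, Lamp1 and Naglu. All 6 are among the 16 of 27 listed genes that rose as labelled, and whether the motif goes with the rise was not tested. Matches on both strands can overlap, as in the sequence TCACGTGA. A match is a description of the letters. The 250 bases before the start of Lamp1 (chr8:13158911-13159160, plus strand) and of Ctsd (chr7:142387828-142388077, minus strand), build GRCm38.p6, are shown 5′ to 3′ because among the 6 they hold the most matches in those 250 bases, 4 and 3, which are in capitals.
Lamp1: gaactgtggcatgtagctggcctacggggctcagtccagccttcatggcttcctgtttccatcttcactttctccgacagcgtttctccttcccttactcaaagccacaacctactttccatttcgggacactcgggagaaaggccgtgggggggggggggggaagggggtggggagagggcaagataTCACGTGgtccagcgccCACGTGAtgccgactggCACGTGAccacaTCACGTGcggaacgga
Ctsd: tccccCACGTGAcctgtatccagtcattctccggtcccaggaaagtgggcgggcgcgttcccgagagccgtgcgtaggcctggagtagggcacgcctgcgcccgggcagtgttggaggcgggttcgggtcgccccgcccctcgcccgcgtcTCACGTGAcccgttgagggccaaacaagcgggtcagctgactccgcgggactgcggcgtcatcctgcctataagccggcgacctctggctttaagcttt
Lamp1, a membrane protein of lysosomes, measured 2411, 2551 and 2412 CPM against 1561, 1513 and 1618 CPM in WT (log2 difference 0.54 ± 0.14, adjusted p = 0.00948). Ctsd, the aspartic protease cathepsin D, measured 21730, 22520 and 19510 CPM against 7734, 7908 and 8941 CPM (1.14 ± 0.27, adjusted p = 0.00610).

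The median difference of interferon target genes was smaller in the Mxo4 set than in the untagged one, although no single gene passed edgeR's test of that difference. Of 24 type I interferon target genes, 6 rose as labelled (Oasl2, Oas1a, Usp18, Bst2, Ifi27l2a and Rtp4) and none fell. Only 1 of 24 was called without replicate 58. The median log2 difference was 0.55 as labelled and 0.79 without replicate 56, against 1.58 in the untagged set, where 23 of 24 were called higher, and 1.31 with the NLRP3 genotype, where 18 were. The test of the tagged against the untagged difference called none of the 24 with replicate 56 in the fit, although 14 had an unadjusted p under 0.05 and DESeq2 called 1. In that fit 23 of 24 had a smaller difference in the Mxo4 set, with a median of −0.90 against 0.01 over all genes. Other lists also had negative medians there, −0.65 for the disease-associated genes (25 of 25 below 0), −0.60 for ribosomal proteins (20 of 20), −0.65 for cytokines and NF-kB regulators (17 of 21), −0.55 for MHC class II (10 of 10), −0.53 for MHC class I (15 of 16), −1.85 for monocyte markers and −2.63 for neutrophil markers. The median difference of monocyte markers was 0.75 in the untagged set and −0.70 in the Mxo4 set as labelled, and that of neutrophil markers 1.51 and −1.20. The part of those cells, or of sex, in the difference between the sets was not tested. In a fit without replicate 56, given as a description, the interferon median was −0.628 (23 of 24 below 0). The disease-associated median was then −0.345 (20 of 25) and the ribosomal one −0.417 (20 of 20). Cytokines and NF-kB regulators had −0.446, MHC class II −0.41 and MHC class I −0.392. Monocyte and neutrophil markers had −2.171 and −3.183, against −0.027 over all genes. Oasl2, an oligoadenylate synthetase-like antiviral protein, measured 75.6, 92.1 and 44.1 CPM against 13.4, 16.2 and 18.3 CPM (1.77 ± 0.38, adjusted p = 0.00202), and kept its call in every leave-out. Replicate 59 was the lowest of the 3 APPPS1 libraries and the median ratio of highest to lowest over the list was 1.69, against 1.23 for the disease-associated genes.

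The interferon-response motif was shared by many of these genes. It was searched on both strands as the letters GAAA, any 2 bases, and GAAA again. The motif occurred in 11 of the 17 listed genes with a promoter (64.7%), against 3.99% of all genes. Bst2, Isg15 and Oas1a held it in overlapping copies. The 250 bases before the start of Oas1a (chr5:120907526-120907775, minus strand) and of Isg15 (chr4:156200819-156201068, minus strand), RefSeq build GRCm38.p6, are shown with the matches in capitals because one of the pair rose as labelled and the other did not pass.
Oas1a: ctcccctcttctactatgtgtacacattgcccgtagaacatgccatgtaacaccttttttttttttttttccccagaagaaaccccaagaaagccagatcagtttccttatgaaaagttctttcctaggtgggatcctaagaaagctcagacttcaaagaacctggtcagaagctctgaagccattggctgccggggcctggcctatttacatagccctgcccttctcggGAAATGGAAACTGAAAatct
Isg15: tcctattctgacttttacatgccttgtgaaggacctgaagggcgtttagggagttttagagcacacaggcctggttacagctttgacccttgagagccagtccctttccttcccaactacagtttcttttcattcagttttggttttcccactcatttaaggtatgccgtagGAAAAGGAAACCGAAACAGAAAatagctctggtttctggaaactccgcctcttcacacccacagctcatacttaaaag
Oas1a, an oligoadenylate synthetase, measured 41.4, 53.8 and 32.8 CPM against 13.7, 10.8 and 12.7 CPM (1.47 ± 0.36, adjusted p = 0.00706). Its call was lost without replicate 58 (adjusted p = 0.0778) and without replicate 61. Isg15, a ubiquitin-like protein, measured 8.06, 10.6 and 6.78 CPM against 4.39, 5.11 and 6.27 CPM (0.45 ± 0.31, adjusted p = 0.482). It was called higher in the untagged set, with a log2 difference of 1.36 and an adjusted p of 0.000727.

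Genes of MHC class I presentation gave 4 that rose of 16 (B2m, H2-D1, H2-T23 and H2-M3) and none that fell. None of the 16 was called without replicate 58, 60 or 61. B2m, the light chain of all class I molecules, measured 6298, 6276 and 5237 CPM in APPPS1 and 2686, 2264 and 3216 CPM in WT, and its log2 difference was 0.94 ± 0.23 (adjusted p = 0.00831). No gene of 10 in the class II list passed the edgeR test as labelled, where 3 had an unadjusted p under 0.05, and DESeq2 called 0. Cd74, the invariant chain of class II, had 820, 847 and 1598 CPM against 332, 315 and 584 CPM (1.09 ± 0.44, adjusted p = 0.149).

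Genes of the inflammasome and the interleukin-1 family moved in both directions. Il1b, interleukin-1 beta, measured 762, 1158 and 1322 CPM against 194, 237 and 288 CPM, with 176 CPM in replicate 56. It rose by 1.83 ± 0.36 on the log2 scale (adjusted p = 0.000655) and kept its call in every leave-out. The initiator caspase Casp8 measured 140, 141 and 147 CPM against 225, 210 and 211 CPM, with 219 CPM in replicate 56, and fell by 0.41 ± 0.09 (adjusted p = 0.00323), also in every leave-out. Il18bp, the binding protein of interleukin-18, rose and Nlrp1b, an inflammasome sensor, fell as labelled (adjusted p = 0.0244 and 0.0416), and lost their calls in 4 and 5 of 7 leave-outs. These were 2 higher and 2 lower of 20 inflammasome genes. Nlrp3 itself measured 148, 271 and 236 CPM against 94.4, 113 and 106 CPM, with 111 CPM in replicate 56. The 3 and 3 libraries did not overlap, but the labelled comparison did not pass (0.79 ± 0.27, adjusted p = 0.0796), nor did the untagged one (0.55 ± 0.26, adjusted p = 0.137).

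Of 21 cytokines, chemokines and NF-kB regulators, 6 rose and 1 fell, and 1 of the 6 was called without replicate 58 or 61. Cd14, a co-receptor for bacterial lipids, measured 889, 1312 and 1351 CPM against 408, 421 and 522 CPM (1.16 ± 0.23, adjusted p = 0.000685) and was the member called in all leave-outs. Tlr2 (670, 932 and 827 CPM against 374, 282 and 416 CPM) lost its call without replicate 58 or 61 (adjusted p up to 0.0736). The chemokine Ccl2 measured 82.8, 66.5 and 68.3 CPM against 123, 115 and 172 CPM. Its fall (−0.84 ± 0.22, adjusted p = 0.0140) was lost without replicates 58, 59 or 62, and Ccl2 had a log2 difference of 0.43 ± 0.21 in the untagged set (adjusted p = 0.161).

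Of 24 genes of glycolysis and the response to low oxygen, 14 rose as labelled (11 without replicate 58, 61 or 62) and none fell, while 18 lay above every WT library and 4 below in the 3 APPPS1 libraries (14.5% and 15.6% of all genes). Those that rose include Aldoa, Tpi1, Gapdh, Pgk1, Eno1, Pkm and Ldha. Hif1a, the oxygen-regulated transcription factor, measured 928, 1071 and 840 CPM against 268, 184 and 243 CPM. Egln3, an oxygen-sensing prolyl hydroxylase (chr12:54178981-54203860, minus strand), measured 44.6, 70.3 and 45.7 CPM against 3.31, 2.34 and 1.85 CPM, with 2.37 CPM in replicate 56 (log2 difference 4.02 ± 0.56, adjusted p = 3.29e-06). Of 23 genes of oxidative phosphorylation 1 rose, close to the 3.44% of all genes that did. It was Ndufa1, a subunit of complex I (143, 145 and 103 CPM against 37.7, 41.7 and 45.4 CPM, adjusted p = 0.00109, edgeR). In the untagged set 16 of 23 were called higher, against 11.1% of all genes. Cox4i1, a subunit of complex IV, had a log2 difference of 0.60 ± 0.19 as labelled (adjusted p = 0.0545) and 1.21 ± 0.19 in the untagged set.

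Among 24 genes of glutamine and glutamate metabolism 2 rose, and 2 were called higher without any 1 of the 6 libraries other than replicate 56. Psat1, an aminotransferase of serine synthesis (chr19:15904678-15947337, minus strand), measured 232, 249 and 243 CPM against 48.3, 29.1 and 30.1 CPM, with 38.7 CPM in replicate 56, and averaged 241 ± 8.68 CPM (SD, n = 3) in APPPS1 and 35.8 ± 10.8 CPM in WT. Got1, the cytosolic aspartate aminotransferase, measured 105, 152 and 136 CPM against 34.8, 35.3 and 38.9 CPM. Phgdh, which starts serine synthesis, measured 83.2, 84.0 and 88.0 CPM against 107, 104 and 120 CPM, without overlap, and did not pass (−0.28 ± 0.10, adjusted p = 0.121).

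Of 22 cholesterol synthesis genes, 9 rose (5 without replicate 57, 58, 60 or 61) and none fell. Insig1, a regulator of sterol sensing, measured 74.5, 87.9 and 70.5 CPM against 35.6, 36.4 and 39.5 CPM. Of 21 lipid transport and storage genes, 8 rose (5 without replicates 57, 58, 59, 61 or 62) and none fell. The fatty acid-binding proteins Fabp3 and Fabp5 measured 41.1, 38 and 30.1 CPM against 2.42, 2.39 and 2.19 CPM, and 195, 166 and 106 CPM against 6.18, 9.35 and 16 CPM. Apoe, the main lipid carrier of the brain, measured 9682, 9896 and 10610 CPM against 1252, 1279 and 2660 CPM, with 1044 CPM in replicate 56 and with replicate 62 again the highest of WT. The sterol-site letters TCACNCCAC occurred in 1 of 16 promoters of the cholesterol list, that of Hmgcs1 (6.2%), against 1.44% of all genes.

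Ribosomal protein genes were higher in all 3 APPPS1 libraries than in any WT library for all 20 listed (14.5% of all genes were), and 14 rose as labelled (3.44% of all genes did). That count fell to 2 without replicate 60 and did not pass 10 in any of the other 5 leave-outs. Rps2 measured 185, 196 and 184 CPM against 91.6, 107 and 109 CPM (0.70 ± 0.16, adjusted p = 0.00431; 0.0496 without replicate 60). All 20 were called higher in the untagged set (median 1.24) and 6 with the NLRP3 genotype (median 0.54). Of 23 proliferation genes 5 rose, namely Top2a, Cdk1, Birc5, Rrm2 and Cdkn1a, and 1 was called without replicate 58. Cdk1, the mitotic kinase, measured 15.5, 14.6 and 12.3 CPM against 4.39, 4.08 and 3.40 CPM (1.56 ± 0.29, adjusted p = 0.000344), and was called in each leave-out. Cdkn1a, which arrests the cycle, measured 67.3, 137 and 112 CPM against 51.6, 57.8 and 56.6 CPM and lost its call without replicate 58 (adjusted p = 0.139).

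Of 21 genes tested in the list of growth factors and matrix 8 rose and 1 fell, the matrix protein Tgfbi. Of 18 integrated stress response genes 1 rose, Psat1 described above. In this list and the next, 1 gene is close to the 3.44% of all genes that rose. Of 24 immediate-early and dissociation genes, which respond to tissue handling, 1 rose, the transcription factor Egr2 (133, 179 and 188 CPM against 92.5, 80.9 and 83.8 CPM, with 138 CPM in replicate 56, adjusted p = 0.0326). Egr2 lost its call in 5 of 7 leave-outs. The summed level of those 24 genes was 21880, 33940 and 37530 CPM in APPPS1 and 32960, 36030 and 35650 CPM in WT, so replicate 57 was the lowest of the 6. Hspa1a, a stress-induced chaperone, measured 1269, 1109 and 954 CPM against 2773, 2976 and 1643 CPM (adjusted p = 0.156).

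**Figure D3:**
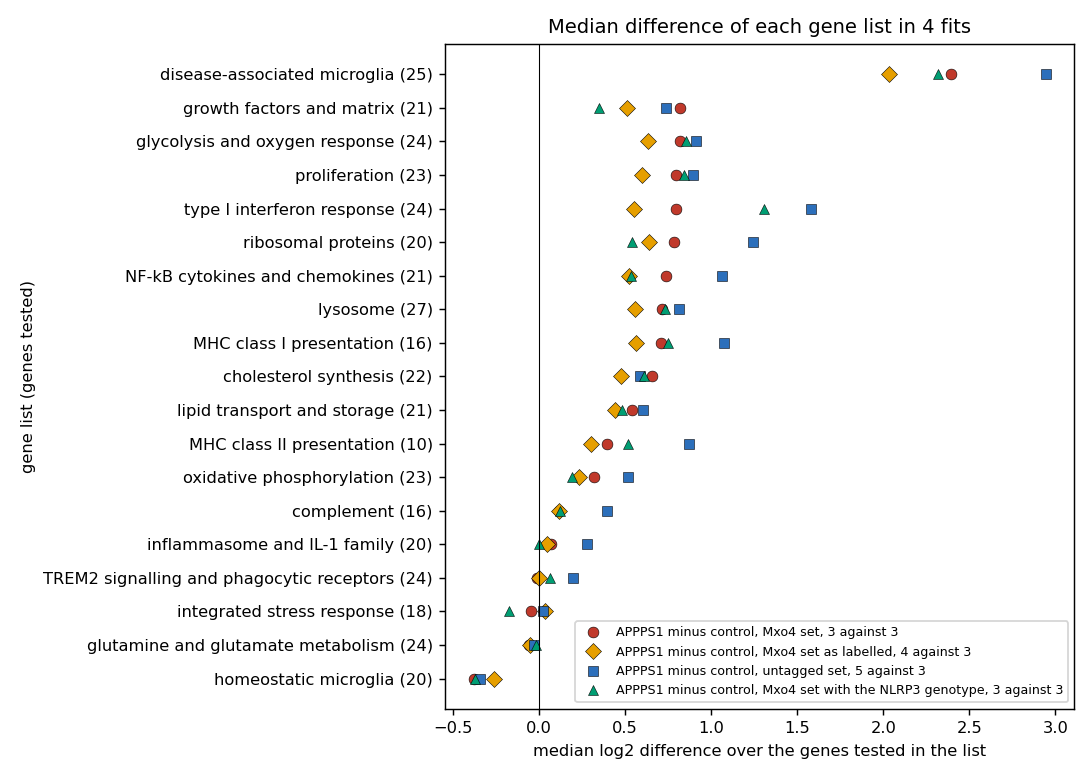
Median log2 difference over the tested genes of 19 gene lists (y axis, with the number of genes) in 4 fits, 1 marker each, of APPPS1 minus control. The disease-associated list stands highest in all 4 fits (2.03 to 2.94), the homeostatic list lies below 0, and for interferon genes the Mxo4 medians of 0.55 and 0.79 lie below the 1.58 of the untagged set.

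Some named genes of at least 5 CPM did not pass as labelled but were called in the untagged set. Of these, 731 were called higher there and lay above every WT library in all 3 APPPS1 libraries. By the same conditions 418 were lower. Over all genes tested, 14.5% lay above and 15.6% below without overlap, and 11.1% and 6.99% were called higher and lower in the untagged set. Cd69, an early activation antigen, measured 10.3, 25.8 and 13.9 CPM against 4.21, 4.18 and 7.00 CPM and 1.08 CPM in replicate 56 (1.31 ± 0.48 as labelled, adjusted p = 0.104; 2.92 ± 0.49 in the untagged set, adjusted p = 1.5e-05). Il12b, a subunit of interleukin-12, measured 5.25, 8.02 and 4.22 CPM against 1.43, 0.761 and 1.60 CPM, with 0.0514 CPM in replicate 56. Oas1g, Pcdhgb1, Pianp and Cenpe were the other 4 of the 6 largest. Among the lower ones, Pygm, the muscle form of glycogen phosphorylase, measured 1.5, 1.16 and 1.39 CPM against 4.75, 5.71 and 4.62 CPM, with 7.51 CPM in replicate 56, the highest of the 7. Tmem44 measured 13.2, 9.73 and 11.9 CPM against 34.6, 40.4 and 23.9 CPM, with 31.1 CPM in replicate 56 (−0.97 ± 0.31, adjusted p = 0.0510). Gria2, a glutamate receptor subunit best known from synapses, Tril and Ctnnd2 were also among the 6 largest. The choice of these genes sets replicate 56 apart from the other 3 APPPS1 libraries, so its place is no finding.

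The size of the transgene difference was tested between the tagged and untagged sets, with replicate 56 in the fit. It called 1 gene of 19865 (0.00503%), the transcript 4833420G17Rik, named because the count is so small, with a log2 difference of 1.52 ± 0.27 (adjusted p = 0.0105). In the same fit 1937 genes had an unadjusted p under 0.05, and DESeq2 called 13. With sex as a further term the edgeR test also called 1 gene. Pdcd1, the inhibitory receptor PD-1, measured 51.4, 41.4 and 51 CPM against 10.1, 7.01 and 18.1 CPM. It rose in the Mxo4 set by 1.65 ± 0.39 as labelled (adjusted p = 0.00633), and the call did not hold when either replicate 60 or 61 was dropped (adjusted p up to 0.0859). It rose by 4.12 ± 0.44 in the untagged set, and the difference of −2.47 ± 0.54 between the sets had an adjusted p of 0.0873. Ifi30, a thiol reductase of antigen processing, measured 59.9, 61.7 and 65.0 CPM against 85.0, 83.2 and 103 CPM, and had the opposite sign in the untagged set (0.49 ± 0.14). The difference of −1.01 between the sets had an adjusted p of 0.0501. Mx1, an antiviral GTPase, had 12.1, 14.9 and 9.89 CPM against 13.6, 12.1 and 11.5 CPM, with overlap, while the untagged difference was 1.66 ± 0.30 (adjusted p = 5.22e-05). The difference between the sets had an adjusted p of 0.0923.

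Markers of several other cell types were lower in the 3 APPPS1 libraries. For 8 of 11 astrocyte, 8 of 11 endothelial and pericyte, 7 of 10 monocyte, 8 of 10 border-associated macrophage and 8 of 10 neutrophil markers, all 3 APPPS1 libraries lay below all 3 WT libraries, against 15.6% of all genes tested. The summed level of the astrocyte markers was 329, 293 and 277 CPM against 488, 483 and 542 CPM, with 582 CPM in replicate 56. The border-associated macrophage markers summed to 328, 209 and 192 CPM against 546, 499 and 619 CPM, and the monocyte markers to 130, 110 and 109 CPM against 261, 252 and 285 CPM. In these 3 lists replicate 56 measured 582, 529 and 255 CPM, at or near the WT level. The neutrophil markers summed to 136, 73.7 and 147 CPM against 205, 345 and 502 CPM, with WT replicate 62 the highest.

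As labelled, no gene of the astrocyte, oligodendrocyte, monocyte, neutrophil, B cell, erythroid or choroid plexus lists passed the edgeR test, and DESeq2 called 0 in each. An unadjusted p under 0.05 was found for 4 astrocyte, 4 oligodendrocyte, 2 monocyte, 2 B cell, 2 erythroid, 0 neutrophil and 0 choroid plexus markers. In edgeR's test 1 gene each fell in 4 other lists. These are Ms4a7 for border-associated macrophages, Rgs5 for pericytes, Tubb3 for neurons and Cd4 for T cells. Ms4a7 measured 7.22, 8.13 and 6.17 CPM against 23.4, 19.1 and 30.1 CPM (−1.24 ± 0.35, adjusted p = 0.0252), and lost its call without any of replicates 57, 58, 59, 60 and 62 (adjusted p up to 0.152). Rgs5 measured 2.81, 2.71 and 5.17 CPM against 11.1, 9.29 and 16.4 CPM (−1.54 ± 0.40, adjusted p = 0.0133), and lost its call without replicates 57, 58 or 62 (adjusted p up to 0.125). In the untagged set Ms4a7 and Rgs5 had log2 differences of 0.17 ± 0.34 and 0.06 ± 0.36. The choroid plexus markers summed to 479, 287 and 116 CPM against 523, 797 and 812 CPM, and replicate 56 was highest with 1030 CPM. Replicate 57 stood apart in neuron markers with 86.5 CPM, against 11.6 and 8.39 CPM in the other 2 APPPS1 libraries and 17.1 to 35 CPM in WT. The oligodendrocyte markers summed to 288, 204 and 223 CPM against 174, 343 and 391 CPM, the erythroid markers to 7.97, 49.6 and 31.3 CPM against 82.1, 165 and 58.2 CPM, and the B cell markers to 371, 408 and 350 CPM against 300, 336 and 262 CPM. Most of the B cell sum was Ighm (362, 400 and 343 CPM against 291, 323 and 244 CPM). Cd79b measured 9.66, 7.74 and 6.94 CPM against 8.87, 12.0 and 16.5 CPM, and Cd79a at most 0.389 CPM in either group. The part of other cells in the falls described above was not tested. In bulk samples, fewer cells of a type and less RNA per cell cannot be told apart.

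**Figure D4:**
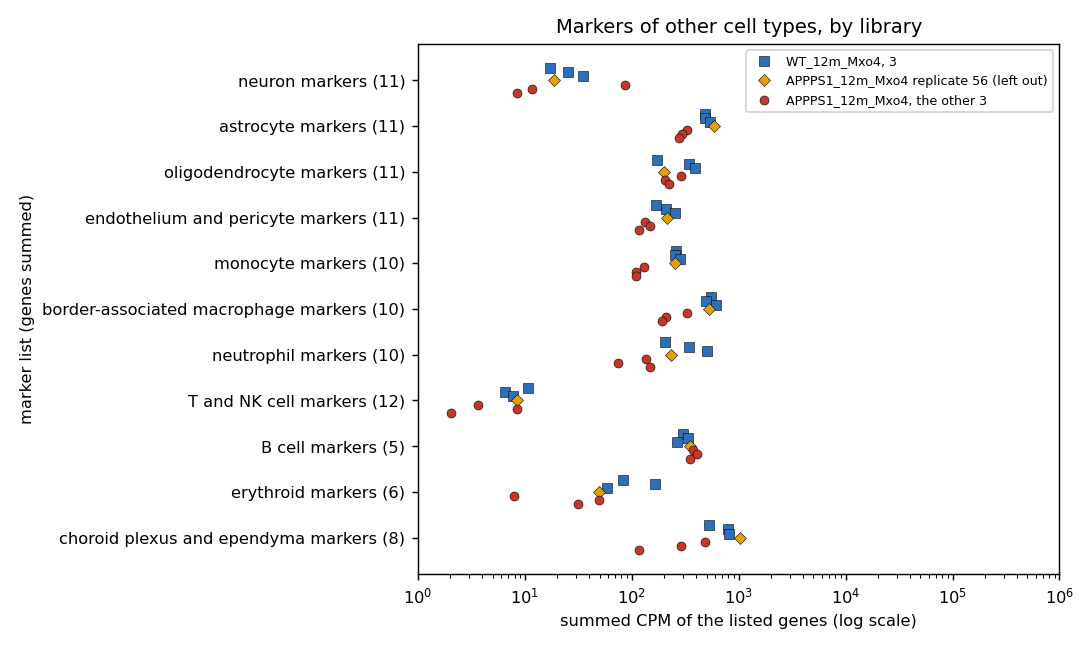
Summed CPM (log axis) of markers of 11 other cell types in each library, 1 point per library, with the number of genes summed in brackets. For astrocyte, endothelial, monocyte and border-associated macrophage markers the 3 APPPS1 libraries lie below the 3 WT libraries and replicate 56 lies among or above them.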

How the data were processed

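RNA of CD11b+ cells was isolated with a miRNA easy kit, and libraries were made from 10 ng with SMART-Seq v4 in 2 batches, pooled 7-8 per pool, and sequenced as paired 125-base reads on a HiSeq instrument, per the labels' protocols. Trimmomatic, TopHat, HTSeq and the mm10 build are named in the submitters' processing notes, without versions. The strand setting of the counting is not given in the sources used here, so overlapping and antisense genes are uncertain. The deposited values are raw counts per gene, summed by the authors without normalization, for 53801 identifiers, of which 53620 were matched to a symbol by GENCODE or the reference tables. Coordinates are those of the annotation on mm10.

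Genes were kept by edgeR's filter (minimum count 10, total 15). Counts were fitted with edgeR 4.0.16 (R 4.3.3) by the quasi-likelihood test, on all 62 libraries in 16 groups, with TMM factors and the second number of the library title as a term. Replicates 57, 58, 59, 61 and 62 have the second number 1, and replicates 56 and 60 have 2. The labels do not say what it numbers. P-values were adjusted over all genes by the Benjamini-Hochberg method at 0.05. DESeq2 1.42.0 was the alternative tool. The script was tested on simulated data. Intervals are exact at 95% and cover counting error only, and SMART-Seq v4 counts here carry no molecular identifiers.

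Members, gene lists and the rule for named genes were chosen with earlier results of these data known. The rule took 12 rises and 12 falls called the same way in both sets, with at least 5 CPM and no overlap, up to 4 members of each of 31 lists, the 6 with the smallest p between sets, and 6 rises and 6 falls called in the untagged set alone. Predicted genes were counted, not named. Some genes that the rule named are not reported here. One library of the series with 659 counts stayed in the fit.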

Additional observations from a re-analysis of the deposited data

Results flagged for a closer look

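In groups of 4 libraries, the library farthest from the others was compared with the group's range (Dixon's 95% critical value). Chance exceeds that value in about 1 of 20 groups, counting whichever of the 4 libraries is farthest, and less often for 1 given library. Replicate 56 stood apart from replicates 57, 58 and 59 in 1037 of 19865 genes (5.22%), against 2.64% for replicate 57, 1.09% for 58 and 0.98% for 59. Replicate 56 was left out for its values and many genes were chosen on the other 3, so these shares restate that choice and test nothing. Among the genes described here it stood apart with these levels in CPM: Trpm1 0, Ptger3 7.36, Bank1 121, Actn1 9.21, Tspan18 42.7, Casp8 219, Trem2 828, Fcgr2b 431, Ctsl 1160, Apoe 1044, Psat1 38.7, Cox4i1 135, Birc5 1.39, Rps2 102, Ms4a7 19.6, Pygm 7.51 and Tmem44 31.1.

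The tagged and untagged sets differed in 4833420G17Rik, with a difference of 1.52 in log2 (adjusted p = 0.0105, edgeR). It was higher in APPPS1 in the Mxo4 set (0.76 ± 0.19, adjusted p = 0.0109) and lower in the untagged set (−0.76 ± 0.18, adjusted p = 0.00155).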

How the results depend on the processing

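No paired analysis was possible because no replicate number is shared by 2 libraries. The first title number, which the labels do not explain, is shared by replicates 57 and 60 and by 56 and 62, and as a term it gave 733 genes as labelled. The number of genes called in the Mxo4 comparison as labelled was 16 in a fit on its own 7 libraries, 1792 with second title number 1 alone (5 libraries) and 0 with second title number 2 alone (replicate 56 against replicate 60), and between 419 and 2536 with 1 library left out. The other alternatives (RLE factors, DESeq2, other filters, no title-number term, the first title number or sex as a term, no library under 100000 counts) stayed within 1.5 times of 1014. Without replicate 56 every alternative stayed within 1.5 times of 2536, from 1717 to 2629. The untagged count was 2267 with the first title number, 1959 on its own groups, 580 with second number 1 alone and 2609 to 4631 with 1 library left out. The count with the NLRP3 genotype was 1824 on its own groups, 629 with second number 2 alone and 599 to 875 with 1 library left out. The tagged-minus-untagged test called 13 genes by DESeq2, 12 without a filter, 2 with a mean of 1 CPM, 2 without the title-number term, 5 with the first title number, 0 on its own groups, 1340 with second number 2 alone and 0 to 49 with 1 library left out, 49 without APPPS1_12m replicate 37. Some of these fits held fewer libraries. The cause of the shifts was not tested.

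Second title number 2 alone sets replicate 56 against 1 WT library. Changes of direction there were counted only for those of the 108 genes described that were called as labelled. Of the called genes 37 turned direction, to log2 differences of Mamdc2 −1.94, Dkk2 −3.44, Cst7 −1.36, Gpnmb −1.54, Kcnk9 −1.05, Sorbs2 0.018, Lgi4 0.29, Adamtsl2 0.089, Ank −0.020, Igf1 −0.61, Csf1 −0.027, Tmem119 0.030, Oasl2 −0.52, Oas1a −0.61, Ifi27l2a −0.52, Usp18 −0.77, B2m −0.015, H2-D1 −0.099, H2-T23 −0.11, Il1b −0.15, Tlr2 −0.44, Axl −0.34, Tyrobp −0.021, Glb1 −0.27, Gusb −0.16, Ctsb −0.080, Itgax −0.88, Lpl −0.69, Fabp3 −0.70, Apoe −0.27, Psat1 −0.33, Hif1a −0.21, Egln3 −0.50, Tpi1 −0.067, Ndufa1 −0.039, Cdk1 −0.14, Pdcd1 −1.09. No other alternative turned the direction of a called gene. Genes with few counts are limited by depth, as in Trpm1 and Chst3, for which the 3 WT libraries together held 3 and 1 counts.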

Other observations

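WT_12m_Mxo4 replicate 62 was the highest of the 3 WT libraries in 24 of 25 disease-associated genes, 17 of 20 ribosomal protein genes, 17 of 21 cytokine and NF-kB genes and 13 of 16 MHC class I genes. In type I interferon genes it was the highest in 11 of 24, and in homeostatic genes in 4 of 20. Replicate 62 was also the highest WT library in 9 of 10 neutrophil markers and 7 of 10 border-associated macrophage markers. Replicate 57 was the lowest of the 3 APPPS1 libraries in Cd69, Cdkn1a, Nlrp3 and Il1b, and in the summed immediate-early and dissociation genes.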
